A study of Mus musculus with 18 samples.

Results

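Major histocompatibility complex (MHC) class II molecules show peptides from engulfed proteins to CD4+ T cells on the surface of dendritic cells, macrophages, B cells and some epithelial cells. An alpha chain and a beta chain assemble on the invariant chain Cd74 in the endoplasmic reticulum, the H2-DM heterodimer then exchanges the invariant chain fragment for peptide in the endosome, and H2-O holds H2-DM back. The transactivator Ciita, which interferon gamma induces, switches on the surface chain, Cd74 and H2-DM genes through promoter elements called the W, X and Y boxes. The 10 mouse genes described here are H2-Ab1, H2-Aa, H2-Eb1, Cd74, H2-DMa, H2-DMb1, H2-DMb2, H2-Oa, H2-Ob and Ciita, taken by symbol from the 55401 genes in the count tables. They were chosen by the measured H2-Ab1 counts, which were known to be low in the AD lung libraries, so the lung contrast of AD and control is a description below: no p is given for it, counts of calls are printed only beside their background, and nothing rests on them. The question asked of it is whether the other members were low as well.

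RNA was sequenced from skin and lung of female wild-type mice at day 28, with 3 La-Cer, 3 AD and 3 control mice per tissue and 18 libraries in all. AD mice received 4 nmol calcipotriol (MC903), a vitamin D analogue that inflames skin, together with 50 µg ovalbumin as allergen, as a model of atopic dermatitis. La-Cer mice received the same agents and an emollient with linoleic acid-ceramide, and control mice were untreated. The strain and age of the mice were not given in the sources used here.

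The counts summed to 13472283 to 18647521 per skin library and to 15904723 to 19338972 per lung library. Libraries differed in how counts were spread over gene length. With genes split by length into 5 equal bins, the median log2 level of the longest bin minus that of the shortest, relative to the mean of the tissue, was -0.44 to -0.13 in La-Cer lungs, 0.33 to 0.70 in AD lungs, and -1.17, 0.25 and 0.23 in control lungs. In skin it was -0.28 to 0.43 in La-Cer, -0.96 to -0.25 in AD and 0.24 to 0.76 in control libraries. Lung control 1 stood apart from the other lung libraries in this measure and on the first principal component. Because this tilt followed the groups, some of the changes are given with a second value after each library's trend on gene length and GC content had been removed. In whole tissue, fewer cells of a type and less RNA per cell cannot be told apart.

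All members except Cd74 and Ciita lie in the class II region of chromosome 17. H2-Ab1 is at chr17:34257689-34269419 on the plus strand and H2-Aa at chr17:34282744-34287823 on the minus strand of GRCm38, and the exonic parts counted for them were 2568 and 3798 bases long. Promoter sequence from RefSeq (GRCm38.p6) was matched for 7 of the 10 members, in 8 windows of 250 bases upstream of a transcript start. The letters TGATTGG, the Y box that the factor NF-Y binds, were found in 6 of the 8 windows, against 7.23% of 32851 promoter windows of the same length, searched on both strands. The letters GCAAC from the X box followed 15 to 35 bases later by TGATTGG were found in 4 of the 8 windows, those of H2-Aa, H2-Eb1, H2-Oa and H2-Ob, against 0.183% of all windows. The letters were chosen after the values were seen, and a match describes the sequence only. The windows shown are those of the surface chains that were low with H2-Ab1 in AD lung (H2-Aa, H2-Eb1), of an inhibitor chain that has the same letters and was not (H2-Oa), and of a peptide exchange chain with the Y letters only (H2-DMb2). Each is written 5′ to 3′ on the gene's own strand and ends at the base before the transcript start, with the X and Y letters in capitals.
H2-Aa, chr17:34287824-34288073, minus strand: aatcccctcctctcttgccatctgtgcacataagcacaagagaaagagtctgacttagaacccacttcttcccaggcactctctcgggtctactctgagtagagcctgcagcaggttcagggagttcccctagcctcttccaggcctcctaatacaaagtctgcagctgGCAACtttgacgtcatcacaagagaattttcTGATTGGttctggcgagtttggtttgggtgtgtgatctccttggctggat
H2-Eb1, chr17:34305617-34305866, plus strand: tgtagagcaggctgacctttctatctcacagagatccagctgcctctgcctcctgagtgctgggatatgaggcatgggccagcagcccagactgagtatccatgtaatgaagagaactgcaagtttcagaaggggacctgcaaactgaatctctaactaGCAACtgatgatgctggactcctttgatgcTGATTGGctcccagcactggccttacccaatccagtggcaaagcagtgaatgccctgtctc
H2-Oa, chr17:34092129-34092378, plus strand: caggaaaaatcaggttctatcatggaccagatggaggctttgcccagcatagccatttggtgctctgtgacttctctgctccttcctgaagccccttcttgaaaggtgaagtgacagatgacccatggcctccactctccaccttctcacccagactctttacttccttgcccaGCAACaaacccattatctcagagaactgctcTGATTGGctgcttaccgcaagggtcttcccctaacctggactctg
H2-DMb2, chr17:34144999-34145248, plus strand: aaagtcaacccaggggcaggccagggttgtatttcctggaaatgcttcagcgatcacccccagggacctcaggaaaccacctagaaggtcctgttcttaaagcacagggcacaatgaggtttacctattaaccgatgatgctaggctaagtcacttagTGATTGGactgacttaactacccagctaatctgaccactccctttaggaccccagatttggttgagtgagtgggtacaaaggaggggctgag
In the 4 windows with both sets of letters the gap between them was 26 bases (H2-Aa), 25 bases (H2-Eb1), 26 bases (H2-Oa) and 23 bases (H2-Ob), and the Y letters began 50, 61, 45 and 59 bases before the start. In H2-DMb2 they began 92 bases before it. Promoter windows of H2-Ab1, Cd74 and Ciita are not shown.

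In lung the fall of H2-Ab1 in AD was the largest of the family and was not the only one. The other surface chains and Cd74 were also lower in every AD library than in every control library, by smaller amounts, whereas the inhibitor chains and Ciita overlapped. H2-Ab1 encodes the beta chain of I-A, the class II molecule that all common laboratory strains carry. It stood at 34.8, 35.4 and 32.0 CPM (counts relative to library size, scaled by the trimmed mean of M-values, TMM) in La-Cer lungs, 7.82, 14.6 and 15.2 CPM in AD lungs, and 78.1, 48.3 and 69.6 CPM in control lungs. The 3 groups did not overlap, with AD lowest, La-Cer between and control highest. These levels rest on 654 counts in the AD libraries together and 3286 in the control libraries. The log2 fold change of H2-Ab1 was -2.38 ± 0.29 (SE, n = 3 per group) between AD and control, and -2.01 after the trend on length and GC was removed. Ranked from the lowest fold change, H2-Ab1 was 148 of 17272 genes tested in lung.

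H2-Aa, the alpha chain that pairs with the H2-Ab1 product, had 41.4, 42.1 and 41.0 CPM in La-Cer lungs, 17.02, 25.3 and 22.7 CPM in AD lungs, and 60.9, 41.8 and 57.3 CPM in control lungs. The AD libraries lay below all others, and 1 control library lay within the narrow La-Cer range. Its log2 fold change between AD and control was -1.30 ± 0.21, and -1.23 with the trend removed. H2-Eb1, the beta chain of I-E, had 109, 118 and 115 CPM in La-Cer lungs, 57.3, 71.4 and 75.3 CPM in AD lungs, and 180, 119 and 127 CPM in control lungs. AD was again below both other groups, without overlap. Its log2 fold change between AD and control was -1.06 ± 0.22 as counted and -0.59 with the trend removed.

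Cd74, the invariant chain, was the most abundant member, with a mean of 487 FPKM (fragments relative to exon length and library size) in La-Cer, 307 FPKM in AD and 490 FPKM in control lungs. Its CPM were 768, 912 and 775 in La-Cer lungs, 433, 553 and 500 in AD lungs, and 801, 842 and 911 in control lungs. The AD libraries were lowest and the other groups overlapped. The log2 fold change between AD and control was -0.78 ± 0.21 as counted, and -0.27 with the trend removed. On the per-length scale H2-Eb1 followed in lung, with mean levels of 58.6 FPKM in La-Cer, 36.4 FPKM in AD and 69.6 FPKM in control. H2-Ab1 averaged 13.3 ± 0.73 FPKM in La-Cer, 5.11 ± 1.85 FPKM in AD and 24.3 ± 4.47 FPKM in control lungs (SD, n = 3 each), so in AD lungs its spread overlapped that of H2-Aa (5.96 ± 1.46 FPKM), whereas in control lungs it was above H2-Aa (13.4 ± 1.99 FPKM).

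**Figure D1:**
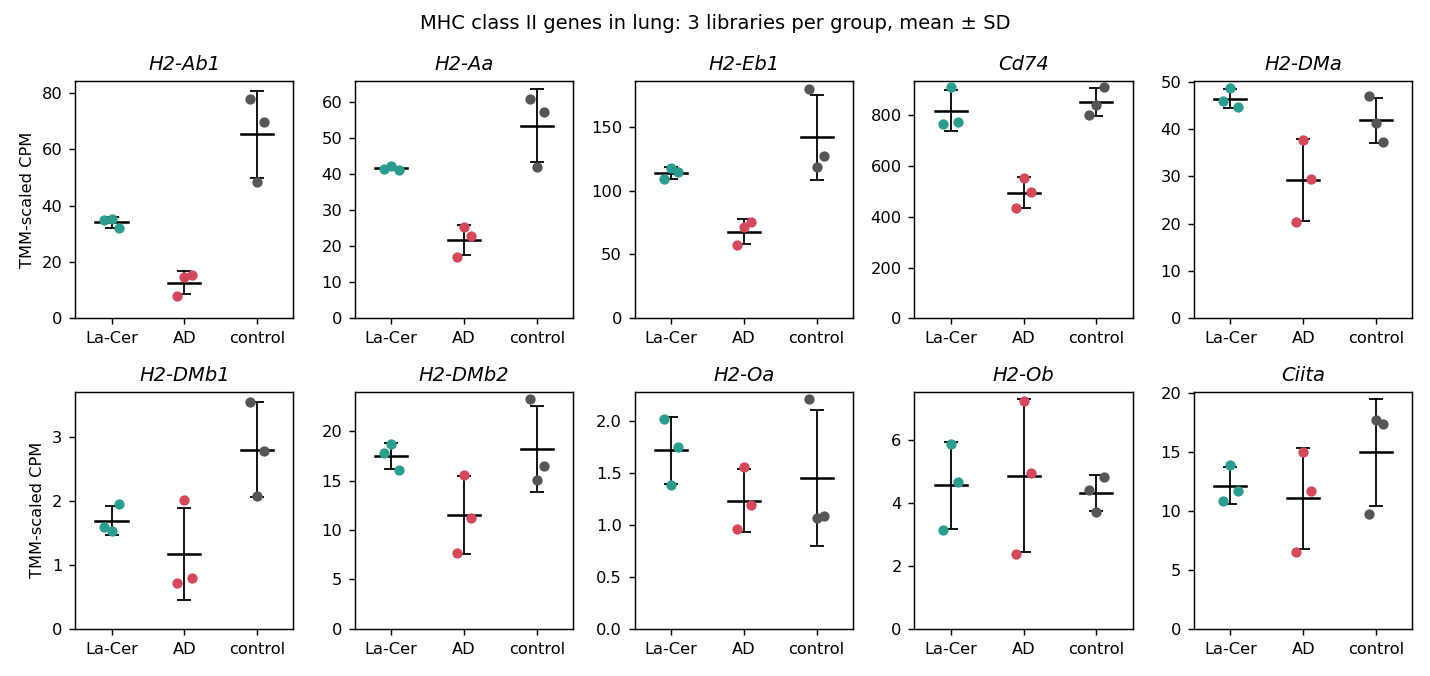
Each panel plots 1 member in lung, with the TMM-scaled CPM on a linear axis from 0 and the groups La-Cer, AD and control from left to right; points are the 3 libraries and bars the mean ± SD. AD libraries lie below all La-Cer and control libraries for H2-Ab1, H2-Aa, H2-Eb1 and Cd74, and overlap them for H2-Oa, H2-Ob and Ciita.

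The peptide exchange genes varied among themselves. H2-DMb1, a beta chain of H2-DM, was at 1.59, 1.53 and 1.96 CPM in La-Cer lungs, 0.717, 2.01 and 0.791 CPM in AD lungs, and 3.56, 2.08 and 2.78 CPM in control lungs. AD and control did not overlap, by a margin of less than 0.1 CPM, and the 3 AD libraries held 61 counts in all. Its log2 fold change between AD and control was -1.25 ± 0.44. H2-DMa, the alpha chain, had 45.9, 48.8 and 44.8 CPM in La-Cer lungs, 20.4, 37.6 and 29.5 CPM in AD lungs, and 46.9, 41.4 and 37.4 CPM in control lungs. H2-DMb2, the second beta chain, had 17.7, 18.7 and 16.1 CPM in La-Cer lungs, 7.70, 15.6 and 11.2 CPM in AD lungs, and 23.2, 15.1 and 16.4 CPM in control lungs. For both genes the highest AD library reached into the control range, and the log2 fold changes between AD and control were -0.52 ± 0.23 (H2-DMa) and -0.66 ± 0.28 (H2-DMb2). Of windows of 50 bases along the H2-DMb1 transcripts, 22.7% were also found in H2-DMb2, so the counts of these copies are uncertain.

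H2-Oa and H2-Ob, whose products form the H2-O inhibitor and are made mostly in B cells, did not share the pattern. H2-Oa had 1.38 to 2.02 CPM in La-Cer, 0.956 to 1.55 CPM in AD and 1.07 to 2.21 CPM in control lungs. H2-Ob had 3.13 to 5.88 CPM in La-Cer, 2.39 to 7.24 CPM in AD and 3.71 to 4.83 CPM in control lungs. Their log2 fold changes between AD and control were -0.24 ± 0.41 for H2-Oa, which turned to 0.42 with the trend removed, and 0.17 ± 0.40 for H2-Ob. Ciita had 10.8, 13.9 and 11.7 CPM in La-Cer lungs, 6.51, 15 and 11.6 CPM in AD lungs, and 9.75, 17.7 and 17.4 CPM in control lungs. The 3 groups overlapped for Ciita, and its log2 fold change between AD and control was -0.44 ± 0.34. The exons of H2-Oa overlap the antisense gene BC051537 and those of H2-DMa overlap Brd2 on the opposite strand, and whether counting used strand was not given in the sources used here.

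Over the family, 9 of 10 log2 fold changes between AD and control lungs were below 0, with a median of -0.72, against 0.01 over all genes tested. For 5 members the AD libraries were lower without overlap, where 12.0% of all genes tested were. With edgeR's quasi-likelihood test, adjusted over all genes, 1 member was called lower at an adjusted p under 0.05, H2-Ab1, where 0.0405% of all genes were called lower. The choice of members used this contrast, so nothing is read from that call or from any other count of calls in it. With the trend removed the family median was -0.44, and H2-Ab1 and H2-Aa kept most of their size while the fold changes of H2-Eb1, Cd74 and H2-DMb2 came nearer to 0. The count was 4 without lung control 1, where 992 of all genes were called in either direction. It was 0 when any single AD or La-Cer library or control 3 was left out.

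La-Cer lungs lay between AD and control for H2-Ab1 and near control for most other members. These comparisons share the AD or the control libraries with the contrast that chose the members, so no p is given for them and their counts of calls support nothing. The log2 fold change of La-Cer over AD was 1.44 ± 0.28 for H2-Ab1, 0.94 ± 0.21 for H2-Aa, 0.75 ± 0.22 for H2-Eb1, 0.72 ± 0.21 for Cd74 and 0.67 ± 0.23 for H2-DMa. Removing the trend left H2-Aa at 0.93 and H2-Ab1 at 1.02, and brought H2-Eb1 to 0.23 and Cd74 to 0.09. The family median was 0.64, or 0.16 with the trend removed, against -0.03 over all genes tested. For 6 members La-Cer was higher than AD without overlap, where 22.5% of all genes were, and the same test called H2-Ab1 higher, where 0.845% of all genes were called. That count was 5 without lung control 1, where 4972 of all genes were called in either direction. It was 0 when any other single library was left out.

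Against control, La-Cer lungs had H2-Ab1 at a log2 fold change of -0.94 ± 0.28, and at -0.996 with the trend removed. Those of the other members lay between -0.72 (H2-DMb1) and 0.24 (H2-Oa), with a family median of -0.18 against -0.05 over all genes. For 3 members, H2-Ab1, H2-Eb1 and H2-DMb1, La-Cer was lower without overlap, where 5.69% of all genes were. The margin was thin for H2-Eb1 (highest La-Cer library 118.2 CPM, lowest control library 118.8 CPM) and for H2-DMb1 (1.961 and 2.078 CPM). The edgeR quasi-likelihood test called 0 members, where 0.0347% of all genes were called in either direction. Over all genes 548 had an unadjusted p under 0.05. DESeq2 called 0 members and 22 of all genes. Limma voom with library quality weights called 2 members, H2-Ab1 and Ciita, and 5253 of all 17272 genes tested.

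**Figure D2:**
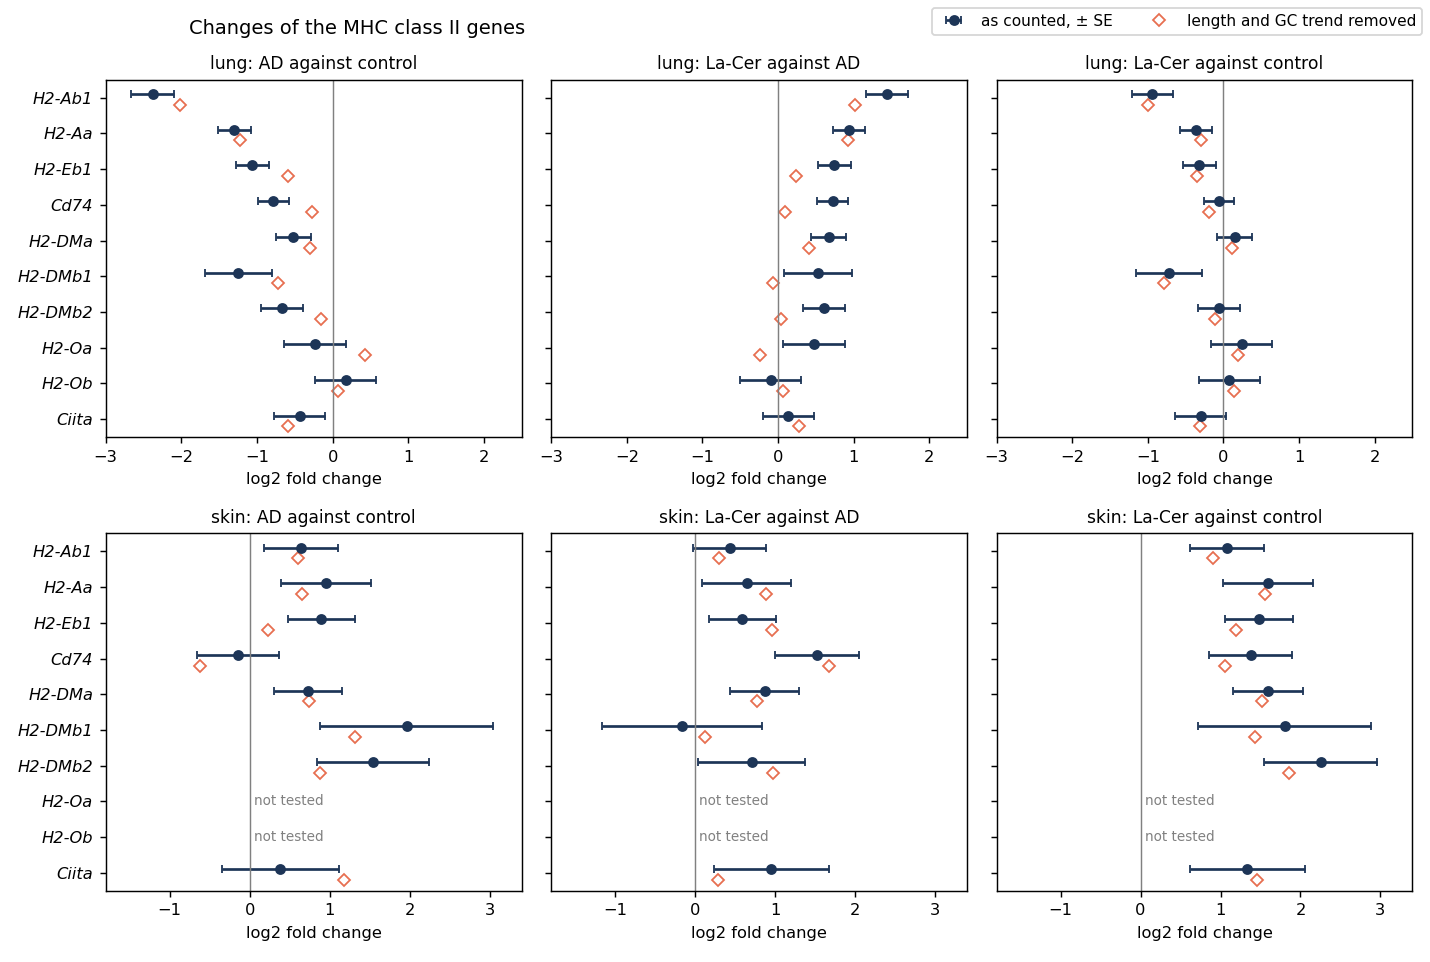
Log2 fold changes of the members (rows) on the horizontal axes, in lung above and skin below, with 1 panel for each pair of groups; filled circles are edgeR estimates ± SE and open diamonds are estimates with the length and GC trend removed. H2-Ab1 has the most negative value in lung for AD against control (-2.38), and in skin the 8 tested members are all above 0 for La-Cer against control.

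How far H2-Ab1 moved apart from its partners was also measured inside each library, where scaling between libraries cancels. A tilt on gene length or GC content does not cancel there, and its share in the ratio was not tested. The log2 ratio of H2-Ab1 counts to the geometric mean of H2-Aa and H2-Eb1 counts was -0.949, -0.995 and -1.10 in La-Cer lungs, -2.00, -1.54 and -1.44 in AD lungs, and -0.42, -0.55 and -0.29 in control lungs. No group overlapped another. The difference of the means was -1.24 for AD minus control, 0.65 for La-Cer minus AD and -0.60 for La-Cer minus control. With H2-Aa alone as the partner the difference between AD and control was -1.11. In skin the ratio averaged -0.58 ± 0.28 in La-Cer, -0.30 ± 0.29 in AD and 0.03 ± 0.43 in control (SD, n = 3 each). The skin groups overlapped in this ratio. The difference was -0.33 for AD minus control (exact two-sided permutation test, p = 0.4). It was -0.28 for La-Cer minus AD (exact p = 0.3) and -0.61 for La-Cer minus control (exact p = 0.2). With H2-Aa alone La-Cer minus control was -0.626 (exact permutation p = 0.1), without overlap. La-Cer minus AD was -1.33 with Cd74 alone and -0.631 with H2-Aa, H2-Eb1 and Cd74 (exact permutation p = 0.1 for each). The remaining skin differences with other partners had exact permutation p of 0.2 to 0.9. With 3 against 3 libraries this test cannot give a p below 0.1.

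**Figure D3:**
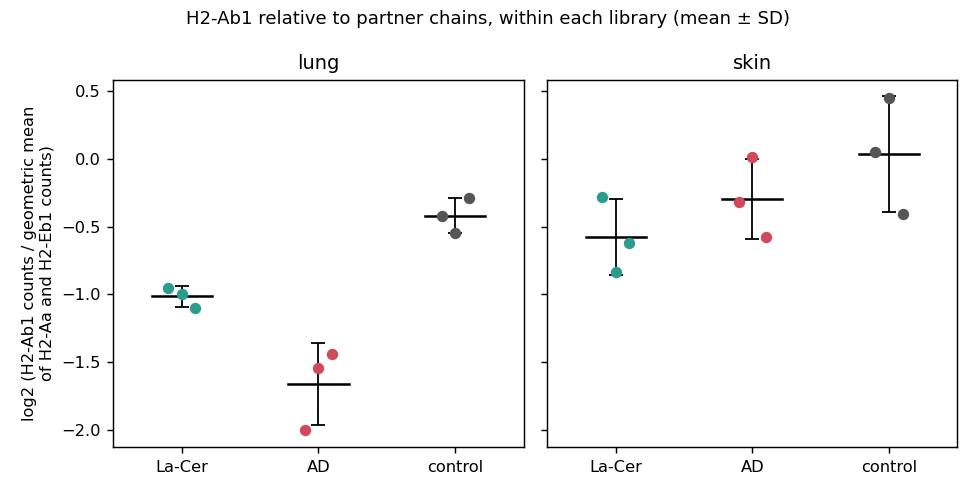
The vertical axis is the log2 ratio of H2-Ab1 counts to the geometric mean of H2-Aa and H2-Eb1 counts in the same library, for lung (left) and skin (right); points are libraries and bars the mean ± SD. In lung the AD libraries, from -2.00 to -1.44, lie below the La-Cer and control libraries, and in skin the groups overlap.

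In skin, whose libraries took no part in choosing the members, most members had positive log2 fold changes between AD and control, and 0 of them passed the test. H2-Ab1 had 26.6, 11.9 and 8.52 CPM in La-Cer skin, 12.4, 10.5 and 11.8 CPM in AD skin, and 4.57, 8.07 and 9.63 CPM in control skin. AD was above control without overlap, and La-Cer overlapped both. The log2 fold change between AD and control was 0.64 ± 0.46, which was not called (edgeR adjusted p = 0.379). H2-DMb2 was the other tested member without overlap, at 8.30, 3.31 and 2.21 CPM in La-Cer, 2.57, 2.74 and 3.11 CPM in AD, and 0.373, 0.616 and 1.89 CPM in control skin. Its log2 fold change between AD and control was 1.54 ± 0.70 (edgeR adjusted p = 0.172), and 0.88 with the trend removed.

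For AD against control in skin, 8 of the 10 members passed the filter on low counts, 7 of the 8 had positive log2 fold changes, and the median was 0.81 against -0.05 over all genes tested. The edgeR quasi-likelihood test called 0 members, where 3.42% of all genes were called higher and 3.44% lower. Adjusted p-values of the members ran between 0.172 and 0.868, and 1 member had an unadjusted p under 0.05, against 4895 of 16956 genes. DESeq2 called 0 members and 3095 of all genes, and limma voom called 2 members, H2-Eb1 and H2-DMb2, and 3778 of all genes. AD was higher without overlap for 2 of the 8 tested members, where 16.3% of all genes were. The p-values set the difference between groups against the spread between these libraries. Whether the skin and lung changes of a member differ was not tested.

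La-Cer skin had the highest mean of 7 of the 8 tested members, with wide spreads between mice. Cd74 had 196, 140 and 94.5 CPM in La-Cer skin, 63.3, 62.5 and 23.8 CPM in AD skin, and 26.8, 44.0 and 95.1 CPM in control skin. La-Cer lay above AD without overlap, and control reached into the La-Cer range. The log2 fold change of La-Cer over AD was 1.52 ± 0.52 (edgeR adjusted p = 0.184). It was the only one of the 8 without overlap in that comparison, where 13.0% of all genes were higher without overlap. The test called 0 members and 0.0% of all genes for La-Cer against AD, and 1 member and 3198 genes had an unadjusted p under 0.05. DESeq2 and limma voom also called 0 members, where they called 984 and 0 of all genes. The family median was 0.68, against 0.02 over all genes.

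Against control, all 8 tested members had positive log2 fold changes in La-Cer skin, from 1.08 (H2-Ab1) to 2.25 (H2-DMb2), with a median of 1.54 against -0.05 over all genes tested. H2-Eb1 had 45.0, 40.1 and 23.5 CPM in La-Cer, 29.2, 17.9 and 24.9 CPM in AD, and 7.33, 10.7 and 20.7 CPM in control skin. H2-DMa had 23.8, 17.1 and 12.5 CPM in La-Cer, 13.3, 9.56 and 6.29 CPM in AD, and 3.73, 5.67 and 8.24 CPM in control skin. For these genes and H2-DMb2 La-Cer was above control without overlap, where 6.48% of all genes were higher without overlap. The test called 0 members and 0.0% of all genes, with adjusted p-values of 0.836 to 0.875 (edgeR). In this comparison 6 members and 968 genes had an unadjusted p under 0.05. DESeq2 and limma voom called 0 members, where they called 67 and 0 of all genes.

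H2-Aa had 23.3, 11.2 and 7.28 CPM in La-Cer skin, 8.26, 6.08 and 12.4 CPM in AD skin, and 2.66, 3.27 and 7.85 CPM in control skin, so every pair of groups overlapped. Ciita had 2.173, 3.45 and 0.808 CPM in La-Cer, 1.04, 1.48 and 0.795 CPM in AD, and 0.280, 1.05 and 1.23 CPM in control skin, and likewise overlapped. H2-DMb1 rested on 31 counts in La-Cer, 31 in AD and 10 in control skin in all. H2-Oa and H2-Ob were not tested in skin. H2-Oa had 1, 10 and 3 counts in La-Cer, 7, 4 and 0 in AD, and 0, 0 and 1 in control skin, and H2-Ob had 10, 1 and 3 counts in La-Cer, 8, 5 and 16 in AD, and 2, 0 and 2 in control skin. For H2-Ob the AD libraries were above the control libraries without overlap.

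**Figure D4:**
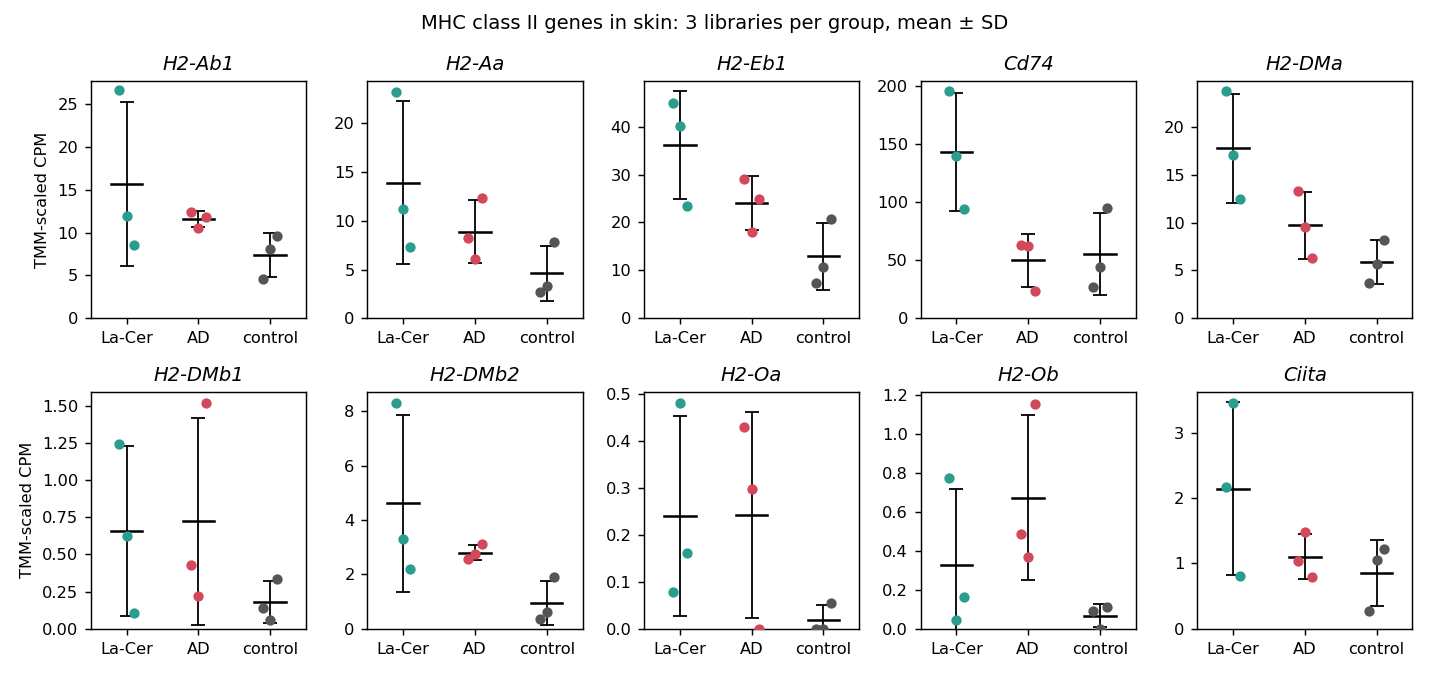
Each panel plots 1 member in skin, with TMM-scaled CPM on a linear axis from 0 and the groups La-Cer, AD and control from left to right; points are the 3 libraries and bars the mean ± SD. AD libraries are above control libraries without overlap for H2-Ab1, H2-DMb2 and H2-Ob, and La-Cer libraries for Cd74 range from 94.5 to 196 CPM.

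Among genes of the same pathway outside the family, 0 were called between AD and control lungs. Over all genes only 8 of 17272 were called in this contrast, so little can be read from 0 calls in a list. Of 13 tested genes for class II transcription and interferon gamma input (Rfx5, the NF-Y subunits, Ifngr1 and others), 0 were called in AD against control lung, with a median log2 fold change of 0.11. Ifngr1, a chain of the interferon gamma receptor, had 156 ± 5.06 CPM in La-Cer, 172 ± 69.0 CPM in AD and 183 ± 45.2 CPM in control lungs (SD, n = 3 each). Of 14 tested genes for antigen processing and class II turnover, 0 were called, with a median of -0.22. Cst3, the cathepsin inhibitor cystatin C, was the most highly expressed of them, at 1058 ± 103 CPM in La-Cer, 436 ± 46.3 CPM in AD and 1300 ± 642 CPM in control lungs. Its log2 fold change between AD and control was -1.58 ± 0.33 (SE). The class I presentation genes (13 tested, median -0.29) and the costimulation genes (10 tested, median 0.18) also had 0 calls in this contrast.

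For La-Cer against AD in lung, 1 of these pathway genes was called, lower, where 1.07% of all genes were called lower. Sppl2a, the protease that clears the remnant of Cd74 from endosomal membranes, was at 85.7 ± 3.07 CPM in La-Cer, 160 ± 30.1 CPM in AD and 106 ± 4.21 CPM in control lungs (SD, n = 3 each). Its log2 fold change of La-Cer over AD was -0.90 ± 0.19 as counted, and -0.30 once that trend was taken out. The H2-Ea gene, which encodes the alpha partner of H2-Eb1, had 234, 205 and 210 CPM in La-Cer lungs, 133, 145 and 146 CPM in AD lungs, and 324, 168 and 190 CPM in control lungs. AD was lowest without overlap, with a log2 fold change of -0.69 ± 0.26 against control that became -0.10 with the trend removed. C57BL/6 mice, the strain of the reference genome, do not transcribe H2-Ea, whereas its mean level was 142 FPKM or more in each lung group here. How well the class II alleles of these mice matched the reference was not tested.

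In skin, 5 pathway genes were called in AD against control, where 3.42% of all genes were called higher and 3.44% lower. Lgmn (1.55 ± 0.40, edgeR adjusted p = 0.048) and Ctsh (1.27 ± 0.33, edgeR adjusted p = 0.048), which encode lysosomal proteases, rose on the log2 scale, 2 of 14 processing genes. Nfya, an NF-Y subunit, fell by 1.25 ± 0.27 (edgeR adjusted p = 0.0413), 1 of 13 transcription genes. Psmb10, an immunoproteasome subunit, rose by 1.25 ± 0.31 (edgeR adjusted p = 0.0454), 1 of 13 class I genes. Cd86, a costimulatory ligand, rose by 3.04 ± 0.70 (edgeR adjusted p = 0.0421), 1 of 7 costimulation genes, at 1.47 ± 0.48 CPM in La-Cer, 4.31 ± 2.84 CPM in AD and 0.521 ± 0.211 CPM in control skin (SD, n = 3 each). With the trend removed 0 genes of all those tested were called in this comparison, and the log2 fold changes were 1.07 (Lgmn), 1.33 (Ctsh), -0.82 (Nfya), 0.83 (Psmb10) and 2.44 (Cd86). Each of the 5 calls was lost in 11 to 14 of the 18 alternatives. In La-Cer skin 0 genes of these lists were called against AD or control, where 0 were called over all genes.

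Markers of the cells that carry class II were read beside these values, and their part in them was not tested. In lung the summed level of 10 dendritic cell markers was 403 to 517 CPM in La-Cer, 375 to 518 CPM in AD and 372 to 478 CPM in control, and 0 of the 10 were at 0 in any library. The 13 macrophage markers summed to 4752 to 6064 CPM in La-Cer, 4345 to 7207 CPM in AD and 3384 to 10970 CPM in control lungs, with the highest value in control 1. The sums of both lists overlapped between the groups. Most of the dendritic cell sum was Cd24a, which other cells also make, and most of the macrophage sum was Lyz2. Lyz2 (-0.06) and C1qb (-0.05) had negative log2 fold changes of AD over control, and those of the other macrophage genes were positive. The largest was that of Chil3 (2.46), at 398, 613 and 117 CPM in AD and 85.0, 60.6 and 58.9 CPM in control lungs, without overlap. Among the other dendritic cell markers, Xcr1, named after its values were seen, had 2.12, 2.45 and 2.28 CPM in La-Cer, 1.31, 0.402 and 2.49 CPM in AD, and 3.19, 2.75 and 3.32 CPM in control lungs, with AD below control without overlap. The list was mixed. Clec9a had 93.8, 48.1 and 34.3 CPM in AD and 18.2, 58.8 and 83.8 CPM in control lungs, which overlapped. Log2 fold changes of AD over control were positive for Clec9a, Itgax, Zbtb46, Clec10a and Cd24a. They were negative for Xcr1, Flt3, Cd209a, Batf3 and Ccr7. The 9 B cell markers summed to 247 to 293 CPM in La-Cer, 92.3 to 198 CPM in AD and 157 to 229 CPM in control lungs, so La-Cer was above AD and control without overlap. The 4 genes listed for Langerhans cells summed to 506 to 583 CPM in La-Cer, 326 to 351 CPM in AD and 552 to 589 CPM in control lungs. AD was lowest in that list without overlap, and most of the sum was Mfge8, which other lung cells also make.

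The 8 alveolar type 2 cell markers, a lung epithelial type that carries class II, summed to 31610 to 34160 CPM in La-Cer, 22600 to 28810 CPM in AD and 22210 to 47020 CPM in control lungs, so the La-Cer sum was above that of AD without overlap. Most of that sum was Sftpc, and the log2 fold changes of La-Cer over AD differed in sign between its genes, such as 0.61 for Sftpc and -0.49 for Sftpa1. In skin the Langerhans list summed to 346 to 397 CPM in La-Cer, 318 to 446 CPM in AD and 247 to 259 CPM in control, and control was lowest without overlap. Cd207 (langerin), its defining marker, had 6.91, 9.11 and 4.85 CPM in La-Cer, 6.18, 3.41 and 9.83 CPM in AD, and 1.21, 0.554 and 2.67 CPM in control skin. It was lowest in the control libraries without overlap, and La-Cer and AD overlapped. Epcam, Cd1d1 and Mfge8, the other genes of the list, each overlapped between AD and control skin. The 13 macrophage markers summed to 69.6 to 213 CPM in La-Cer, 267 to 358 CPM in AD and 85.0 to 205 CPM in control skin, so AD was highest without overlap, and up to 2 of the 13 were at 0 in a library. As a check of the tissue labels, the 5 keratinocyte markers summed to at least 6776 CPM in each skin library and to at most 40.3 CPM in any lung library. In lung, the 5 red blood cell markers summed to 584 to 1215 CPM in La-Cer and 23.8 to 415 CPM in AD, without overlap. Control lungs had 84.3 to 4623 CPM. The 5 cardiac muscle markers summed to 1374 to 2487 CPM in La-Cer, 113 to 2353 in AD and 1422 to 2267 in control lungs. The part of blood or heart tissue in the class II values was not tested.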

How the data were processed

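Gene counts and FPKM values were deposited by the authors for 18 libraries, 9 from skin and 9 from lung. Reads were demultiplexed with bcl2fastq 2.17.1.14 and trimmed with cutadapt 1.9.1, with GRCm38 as the genome build, per the submitters' processing notes; the aligner, counter and strand setting were not given in the sources used here. The deposited counts were tested as they stood, and the authors' FPKM, which follow from the counts and gene lengths, were used to compare levels between genes.

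Each tissue was fitted alone over its 9 libraries with edgeR 4.0.16 (R 4.3.3): TMM scaling, filterByExpr, quasi-likelihood test, Benjamini-Hochberg adjustment over all genes tested, with a call at an adjusted p under 0.05. DESeq2 1.42.0, limma 3.58.1 (voom with library quality weights), other scaling, no filter, only the 6 libraries compared, a length and GC trend removed through offsets with a prior count of 2, the replicate number as a block, and leaving out each library were alternatives. The procedure was run on simulated data for AD against control, with no tilt or with the same length tilt in all AD libraries. Tilts that differ within a group or follow GC content were not simulated, so nothing about the trend-removed values is drawn from it. Same-numbered libraries correlated at -0.726 to 0.308 in their deviations from the group means. The labels state no pairing by number, and so few libraries cannot exclude one. The block used the replicate number of the sample titles, which differs from the number in the submitters' library name for some libraries. Those names share some numbers between skin and lung, and whether both tissues came from the same mice was not stated.

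The members, gene lists and marker lists were chosen with earlier results of these data known. Named pathway genes are up to 3 called genes per list and comparison with the smallest p or, where none passed, from the 2 with the highest mean CPM. Groups come from the sample labels, and 3 libraries per group limit the precision.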

Additional observations from a re-analysis of the deposited data

Results flagged for a closer look

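H2-Ab1 differed in sign between the tissues: the log2 fold change of AD over control was 0.641 in skin and -2.38 in lung, and in each tissue the AD and control libraries did not overlap. H2-Eb1 did so for La-Cer against control, with 1.49 in skin and -0.317 in lung, where the groups were apart by a thin margin. H2-Ea did so for AD against control, with 1.35 in skin and -0.686 in lung, and without the length and GC trend it had 0.03 in skin and -0.10 in lung. None of these 3 differences between tissues was tested, and none of the 3 skin changes passed an adjusted p under 0.05 with edgeR.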

How the results depend on the processing

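The number of members called changed with the processing. For AD against control in lung, 1 member was called; DESeq2 and limma voom called 4, no filter on low counts and the trend removal 2, and the fit on only 6 libraries 0. For La-Cer against AD in lung, 1 was called; DESeq2 and the 6-library fit called 4, voom 5 and the trend removal 0. Voom called 2 members for La-Cer against control in lung and 2 for AD against control in skin, where 0 were called. Leaving out 1 library gave 0 to 4 members for AD against control in lung, 0 to 5 for La-Cer against AD in lung, and 0 in the other 4 comparisons. The replicate block, alone or with the trend removal, gave 0 members in the lung comparisons of AD with control and La-Cer with AD. Since the labels state no pairing by replicate number, this is no measure of effect size.

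Over all genes, counts of calls moved as well. AD against control in skin gave 1163 calls, against 3095 (DESeq2), 3778 (voom), 1908 (no filter), 590 (6 libraries), and 0 with the trend removed or the replicate block. In lung the same contrast gave 8 calls, against 20 (RLE size factors), 1492 (DESeq2), 2077 (voom), 134 (no filter), 98 (trend removed), 18 (trend removed with the block) and 0 (6 libraries, or the block). La-Cer against AD in lung gave 330, against 2502 (DESeq2), 5949 (voom), 4034 (6 libraries), 171 (trend removed), 67 (trend removed with the block) and 12 (block). La-Cer against control in lung gave 6, against 22 (DESeq2), 5253 (voom), 11 (no filter), 3 (trend removed) and 0 (6 libraries, or the block). Leaving out 1 library gave 0 to 1088 calls for AD against control in skin (0 without control 1, control 2, AD 1, AD 2 or La-Cer 3, and 2 without AD 3). In lung it gave 0 to 992 for AD against control, 0 to 4972 for La-Cer against AD and 0 to 21 for La-Cer against control, each highest without control 1, so the background shares printed beside the members move as far. The 0 calls in the other skin comparisons became 984 (DESeq2) and 449 (no filter) for La-Cer against AD, and 67 (DESeq2) and 7 (no filter) for La-Cer against control.

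In lung, some members with log2 fold changes near 0 changed sign. Leaving out 1 library gave -0.436 to 0.2 for H2-Oa and -0.23 to 0.495 for H2-Ob in AD against control, -0.13 to 0.42 for Ciita and -0.416 to 0.309 for H2-Ob in La-Cer against AD, and -0.178 to 0.165 for H2-DMb2 and -0.148 to 0.269 for H2-Ob in La-Cer against control. With the trend removed, H2-DMb1 turned to -0.07, H2-Oa to -0.24 and H2-Ob to 0.07 in La-Cer against AD, and H2-Oa to 0.42 in AD against control. In skin there were further changes of sign. For AD against control, the log2 fold change of Cd74 turned to 0.633 with voom, 0.548 without control replicate 3 and 0.189 without AD replicate 3, that of Ciita to -0.0489 without control replicate 1, and the ratio of H2-Ab1 to its partners to 0.0454 with Cd74 among them. For La-Cer against AD, H2-Ab1 turned to -0.171 and H2-DMb2 to -0.0119 without La-Cer replicate 1. H2-DMb1 turned to 0.02 (no scaling), 0.26 (voom), 0.274 (replicate block), 0.118 (trend removed), 0.589 (trend removed with the replicate block), 0.953 (without AD replicate 3) and 0.361 (without La-Cer replicate 3). The causes were not tested. Leaving out 1 library gave -0.487 to 0.548 for Cd74 and -0.0489 to 0.803 for Ciita in AD against control, and -0.171 to 0.734 for H2-Ab1, -0.938 to 0.953 for H2-DMb1 and -0.0119 to 1.05 for H2-DMb2 in La-Cer against AD. Low counts limited H2-DMb1, H2-Oa and H2-Ob. In lung, H2-Ab1 between AD and control stayed between -2.56 and -2.14 when any single library was left out.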

Other observations

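The genes outside the family whose log2 CPM followed H2-Aa, H2-Ab1, H2-Eb1 and Cd74 most closely over the 9 lung libraries were Rras, a small GTPase (mean Pearson r 0.968), Map2k3, a kinase of the p38 pathway (0.96), Mrpl4, a mitochondrial ribosomal protein (0.95), Ccdc124 (0.946) and Mxra7 (0.946), out of 15564 compared. Over the 9 skin libraries they were Lin7b (0.896), Paqr6 (0.893), Oser1 (0.881), Alox12e (0.876) and Exoc3l2 (0.875), out of 15106. These values describe the libraries, which share depth, scaling and the length tilt, and none of the 10 genes was in the class II pathway lists. The members' share of all counts was 0.102% to 0.121% in La-Cer, 0.0542% to 0.0813% in AD and 0.106% to 0.124% in control lungs, and 0.0155% to 0.0313% in La-Cer, 0.00777% to 0.012% in AD and 0.00528% to 0.014% in control skin.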
